A study of Mus musculus with 15 samples.

Results

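FAM3C KO cells were compared with shPCBP1 cells by RNA-Seq, and the 7 lines of this comparison were taken from the 15 samples of the series. The members were chosen by label: 3 FAM3C KO clones, and as the reference 4 shPCBP1 lines, of which 1 was the unaltered line and 3 were CT clones. All 7 lines derive from NMuMG, a mouse mammary epithelial cell line, and all carry an shRNA against PCBP1, so that each knockout is set against a background in which PCBP1 is already knocked down. CT clones received Cas9 without a gene-specific guide, whereas the FAM3C KO clones received Cas9 with a pair of guides that cut a fragment out of the coding sequence. The KO candidates were grown from single colonies after serial dilution, and 1 RNA sample was sequenced per line. A difference between the groups is therefore a difference between 3 clones and 4 lines, and p-values measure only the spread between these lines.

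FAM3C, also called ILEI, is a small secreted protein of the FAM3 cytokine-like family, known in mammary epithelium for its part in epithelial-mesenchymal transition (EMT). LIFR, the receptor of leukemia inhibitory factor (LIF), pairs with gp130 (encoded by Il6st) and signals through JAK kinases to STAT3. PCBP1 is an RNA-binding protein that holds back the translation of several EMT transcripts. The question of the comparison is which genes depend on FAM3C in cells with PCBP1 knocked down.

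The guides show where the gene was cut, and they are given here because the deleted piece decides what the transcript level can tell. Capitals mark the PAM where the listed sequence includes one, read as NGG at the end or as CCN at the start for a site on the other strand.
exon 3 guide 1: gacctgagacgcctgtctagGGG
exon 3 guide 2: tgcaaagttggtagtggccg
exon 5 guide 1: CCTccgaggtacaagtgtgggat
exon 5 guide 2: cgtgggacccaagatctgccTGG
Exon 3 guide 2 matched the coding part of exon 3 of Fam3c-205 at chr6:22339354-22339373, on the minus strand of GRCm38. The pair for exon 5 matched coding sequence at chr6:22328648-22328670 and chr6:22328565-22328587 and spans 106 bases of a transcript of 2826 bases. Exon 3 guide 1 matched no Fam3c transcript over its whole length. Which pair made which clone was not analysed here.

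Fam3c (ENSMUSG00000029672, chromosome 6 of GRCm38 from 22306520 to 22356243) stood at 53.3 CPM in the unaltered line, and the 3 CT clones had 54.9, 47.0 and 59.4 CPM. CPM is the read count of a gene scaled to a common library total. FAM3C KO clones 1 to 3 were at 26.4, 33.9 and 42.9 CPM, all below the shPCBP1 lines. The level fell to 64.1% of the shPCBP1 mean, a log2 difference of -0.66 (SE 0.15, adjusted p = 0.0428 from limma). A transcript that has lost such a fragment is still counted from the rest of its length, so the remaining level does not measure intact FAM3C. The call was lost in 8 alternatives, among them the fits without FAM3C KO clone 1 (log2 difference -0.49) and without clone 2 (-0.67). Pcbp1 averaged 35.2 ± 1.94 CPM over the shPCBP1 lines (SD, n = 4) against 34.5 ± 1.26 CPM over the clones (SD, n = 3) (adjusted p = 0.847, limma).

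Library totals implied by the values ran from 16031859 to 46901675 among the shPCBP1 lines and from 22581417 to 26026214 among the clones, read from the lowest value of each library, which stands for no reads. Fitted log2 differences are on the scale log2(CPM + 0.1) and understate the change of low genes. Correlations of the gene's GC content with its deviation lay between -0.29 and 0.24 across the 7 libraries. The epithelial markers together summed to 4230 to 5230 CPM in shPCBP1 and 3340 to 4780 CPM in FAM3C KO, with 18 of 26 at a negative difference and 2 called lower. Among them Cdh1 was at 292 to 346 CPM in shPCBP1 and 246 to 362 CPM in FAM3C KO, and Krt8 at 582 to 818 and 490 to 830 CPM, both overlapping. The 6 fibroblast markers on file summed to 3.13 to 6.61 CPM in shPCBP1 and 6.29 to 6.76 CPM in FAM3C KO. Markers of leukocytes summed to 150 to 172 CPM and 127 to 174 CPM, mostly from Cd14. No gene of either list was called. Neural and glial markers had 2 of 6 called, Map2 higher (log2 difference 2.40) and Gap43 lower (-1.30), and summed to 8.21 to 19 CPM and 17.4 to 33.6 CPM. Muscle markers had 0 of 6 called and summed to 41.1 to 50.8 CPM and 51.8 to 58.2 CPM, without overlap. The part of any of these markers in the results was not tested.

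Of 12644 genes tested, 1048 were called at an adjusted p under 0.07, which is 8.29% of all genes. In FAM3C KO, 498 were higher (3.94%) and 550 lower (4.35%). Most of the called differences were small. The median log2 difference was 0.56 among genes called higher and -0.54 among those called lower, against -0.014 over all genes tested. Only 89 of the genes called higher and 132 of those called lower reached a 2-fold difference, and 5 and 20 reached 16-fold. The large differences were more often losses, and of the called genes that differed by at least 4-fold only Thap12 averaged over 100 CPM (see the plot of difference against level).

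The number of calls rested on single lines. It dropped to 515 without CT clone 1, 499 without CT clone 2, 397 without FAM3C KO clone 1 and 414 without FAM3C KO clone 3. In all 7 fits that each left out 1 line, 293 of the 1048 genes were called in the same direction, 131 higher and 162 lower. When the LIFR KO clones also entered the fit, so that 3 groups shared 1 estimate of spread, 39 genes were called, all of them among the 1048. LIFR KO clones 2 and 3 had GC content correlations of -0.756 and -0.743, and the part of these in the drop was not tested.

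**Figure D1:**
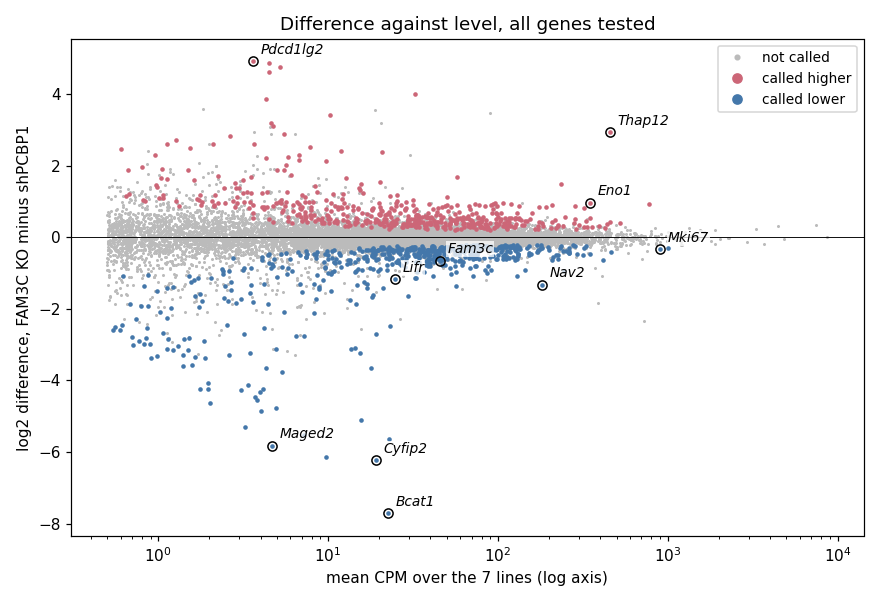
Each point is 1 of 12644 genes, with its mean CPM over the 7 lines on a log axis and its log2 difference (FAM3C KO minus shPCBP1) on the vertical axis; red and blue points were called higher (498) and lower (550), and circles mark named genes. The largest losses, such as Bcat1 at -7.71, exceed the largest gains, such as Pdcd1lg2 at 4.91.

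The genes lost most came from metabolism, chromatin, the cytoskeleton and lineage control. Bcat1 encodes the cytosolic enzyme that starts the breakdown of branched-chain amino acids (chromosome 6 of GRCm38 from 144993835 to 145076184). It was at 22.3 CPM in the unaltered line and 41.3, 48.4 and 44.5 CPM in the CT clones, but at 0.133, 0.0800 and 0.0384 CPM in FAM3C KO clones 1 to 3. The last is the lowest value of that library. Its log2 difference of -7.71 (SE 0.29, adjusted p = 1.46e-05, limma) was the largest of all called genes in either direction.

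Lost genes also included 2 with roles in chromatin. H1f10, a linker histone, was at 14.7 CPM in the unaltered line and 22.6, 9.66 and 20.96 CPM in the CT clones. It was at 0.133, 0.274 and 0.0384 CPM in the FAM3C KO clones (log2 difference -6.14, adjusted p = 0.000307, limma). Smarca2, an ATPase of the SWI/SNF remodelling complexes, was at 12.04 CPM in the unaltered line and 24.6 to 42.5 CPM in the CT clones, and at 0.664, 0.640 and 0.538 CPM in the FAM3C KO clones. The 3 clones kept 2.27% of the shPCBP1 mean of Smarca2, with less spread between them than between the shPCBP1 lines.

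Cyfip2, a subunit of the WAVE complex that drives branched actin, was at 7.92 CPM in the unaltered line and 77.5, 18.5 and 29.6 CPM in the CT clones, against 0.354, 0.240 and 0.115 CPM in the FAM3C KO clones (log2 difference -6.24, SE 0.66). Fndc9, which overlaps Cyfip2 on chromosome 11, fell with it (log2 difference -4.26), and reads shared between the overlapping genes were not separated here. Chst11, a chondroitin 4-O-sulfotransferase, was at 24.5 to 62.4 CPM in the shPCBP1 lines and at 0.177, 1.20 and 1.04 CPM in FAM3C KO (log2 difference -5.65). Anks6, a ciliary ankyrin repeat protein, Ppic, a peptidyl-prolyl isomerase of the secretory pathway, and the protocadherin Pcdh17 fell as well, at log2 differences of -4.47, -5.54 and -4.33.

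All 3 clones had Maged2, Tusc1 and Irx3 at the lowest value of their library, while each of the 4 shPCBP1 lines had at least 1 CPM. No gene tested showed the reverse. Maged2, a MAGE family protein of the X chromosome, was at 6.05, 7.55, 7.56 and 11.3 CPM, with the unaltered line first and the CT clones after it. Tusc1, a single-exon tumor suppressor candidate on chromosome 4, was at 3.62, 5.93, 6.26 and 6.596 CPM in the same order. Irx3, an Iroquois homeobox factor on chromosome 8, was at 3.43, 2.37, 3.15 and 5.05 CPM. No fold is given for these genes because the clones had no reads to set against the reference, and the adjusted p from limma were 2.16e-05, 6.54e-05 and 0.000307.

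The promoters of Maged2, Tusc1 and Irx3 are shown because their transcripts were lost in every clone, with the promoter of Lifr for a gene that fell without being lost. Each window runs from 250 bases before to 50 bases after a RefSeq start on GRCm38, and capitals mark CG dinucleotides.
Maged2, chrX:150814296-150814595, minus strand: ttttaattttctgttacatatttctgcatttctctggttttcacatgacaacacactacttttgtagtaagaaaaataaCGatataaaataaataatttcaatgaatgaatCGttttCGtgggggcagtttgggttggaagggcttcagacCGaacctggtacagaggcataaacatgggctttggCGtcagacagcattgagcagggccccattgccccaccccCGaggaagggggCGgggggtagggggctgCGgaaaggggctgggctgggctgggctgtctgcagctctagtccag
Tusc1, chr4:93335462-93335761, minus strand: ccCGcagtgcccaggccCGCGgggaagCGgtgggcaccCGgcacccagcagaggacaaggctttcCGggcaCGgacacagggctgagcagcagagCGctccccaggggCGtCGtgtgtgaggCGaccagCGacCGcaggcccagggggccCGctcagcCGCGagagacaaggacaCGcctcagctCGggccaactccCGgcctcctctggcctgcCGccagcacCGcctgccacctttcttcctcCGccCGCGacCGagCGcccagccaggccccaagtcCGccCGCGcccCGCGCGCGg
Irx3, chr8:91801605-91801904, minus strand: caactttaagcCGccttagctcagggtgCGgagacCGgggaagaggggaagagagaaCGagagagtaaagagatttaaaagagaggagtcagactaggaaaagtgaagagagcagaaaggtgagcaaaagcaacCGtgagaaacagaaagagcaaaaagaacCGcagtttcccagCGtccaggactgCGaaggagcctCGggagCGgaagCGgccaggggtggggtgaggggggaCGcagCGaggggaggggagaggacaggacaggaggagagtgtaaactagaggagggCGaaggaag
Lifr, chr15:7129322-7129621, plus strand: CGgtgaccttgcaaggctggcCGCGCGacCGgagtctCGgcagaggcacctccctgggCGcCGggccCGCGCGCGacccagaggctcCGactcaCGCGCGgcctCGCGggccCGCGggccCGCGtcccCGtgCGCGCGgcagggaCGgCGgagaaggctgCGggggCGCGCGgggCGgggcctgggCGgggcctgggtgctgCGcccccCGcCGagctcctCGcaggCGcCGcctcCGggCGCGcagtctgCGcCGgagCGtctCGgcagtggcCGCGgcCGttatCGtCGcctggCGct
The Maged2 window held 8 CG dinucleotides, that of Tusc1 33, that of Irx3 14 and that of Lifr 53, against a median of 21 over the 9963 tested genes with a window. Windows with at least 15 made up 70% of the tested genes, 71.5% of the genes called higher and 70% of those called lower. Among genes called lower by at least 4-fold the share was 51.1% (23 of 45 with a window), and among those called higher by at least 4-fold 47.8% (11 of 23). The STAT motif TTCNNNGAA, searched on this palindrome and so on both strands, was in the Maged2 window and not in the other 3. It was in 6.94% of the windows of tested genes, 6.11% of those called higher and 7.33% of those called lower. Each window covers a single start. The paper reports STAT3 binding at the LIFR promoter by ChIP-qPCR, and the overlap of that region with this window was not tested.

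**Figure D2:**
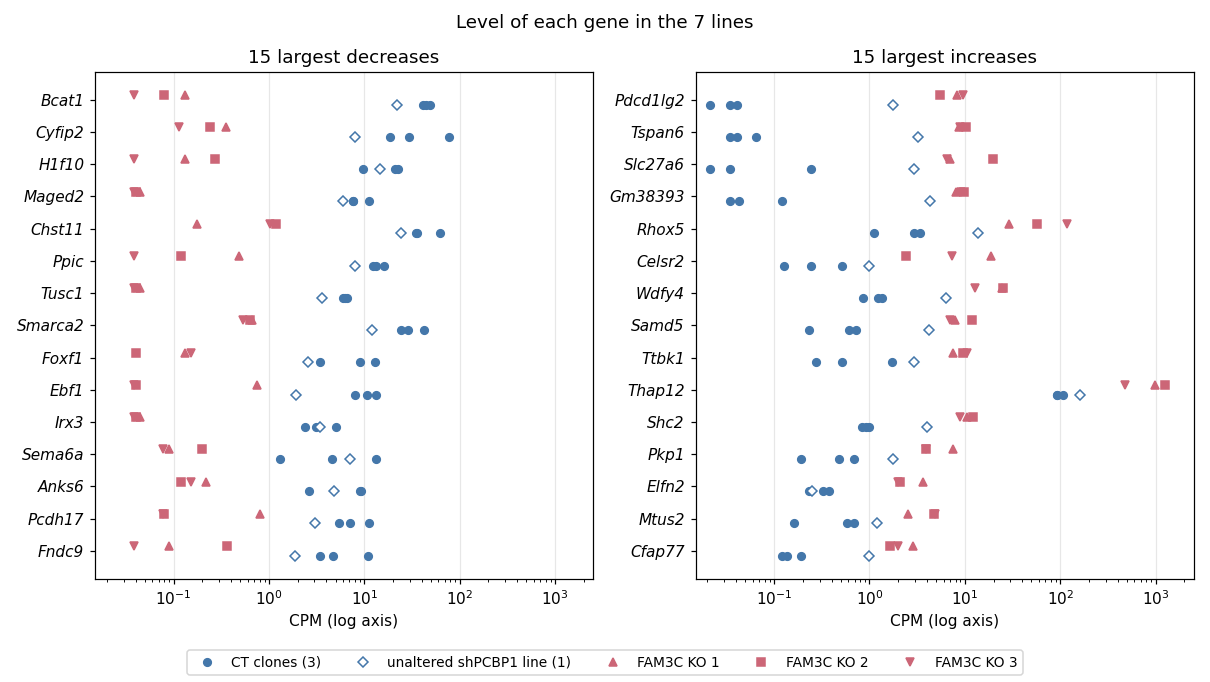
CPM on a log axis for the 15 genes with the largest decrease (left) and increase (right), with 1 symbol per line: filled circles for CT clones, open diamonds for the unaltered shPCBP1 line and triangles or squares for FAM3C KO clones. The groups do not overlap for any of the 30 genes, and the unaltered line is the shPCBP1 line nearest to the clones for 11 of the decreases and 14 of the increases.

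Genes with the largest gains were rarely silent in every shPCBP1 line. Pdcd1lg2 encodes PD-L2, a ligand of the inhibitory T cell receptor PD-1. It was at 1.75 CPM in the unaltered line, at 0.0213, 0.0404 and 0.0344 CPM in the CT clones, and at 8.37, 5.44 and 9.49 CPM in FAM3C KO clones 1 to 3. Tspan6, a tetraspanin, was at 3.24 CPM in the unaltered line, 0.0344 to 0.0640 CPM in the CT clones and 8.68, 10.4 and 8.80 CPM in the FAM3C KO clones. Slc27a6, a fatty acid transport protein, was at 2.93 CPM in the unaltered line, 0.0213 to 0.242 CPM in the CT clones and 6.997, 19.7 and 6.46 CPM in the FAM3C KO clones. In these genes the unaltered line stood between the CT clones and the FAM3C KO clones.

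The same order held for 14 of the 15 largest increases. The exception was Elfn2, a leucine-rich repeat protein of synapses, which was at 0.235 to 0.378 CPM in all 4 shPCBP1 lines and at 3.68, 2.08 and 2.00 CPM in FAM3C KO (log2 difference 2.72, SE 0.30, adjusted p = 0.00376, limma). Of the 15 largest increases, 3 (Elfn2, Thap12 and Shc2) were called in each fit that left out 1 line, against all 15 of the largest decreases. Over all 498 genes called higher, the unaltered line was the shPCBP1 line nearest to the clones for 248 (49.8%), against 25.7% of the 5947 tested genes with a positive difference. Over the 550 called lower it was nearest for 293 (53.3%), against 31.8% of the 6697 with a negative difference.

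Other large gains were of mixed function. Rhox5, an X-linked homeobox gene of reproductive tissue, was at 13.8 CPM in the unaltered line, 1.11 to 3.37 CPM in the CT clones, and 29.1, 57.2 and 119 CPM in the FAM3C KO clones. The atypical cadherin Celsr2 was at 18.8, 2.40 and 7.26 CPM in the FAM3C KO clones and under 1 CPM in every shPCBP1 line. Pkp1, a plakophilin of desmosomes, Shc2, an adaptor of receptor tyrosine kinases, and Wdfy4, which takes part in cross-presentation of antigens, rose by 2.82, 2.87 and 3.42 on the log2 scale. Gm38393 overlaps the imprinted gene Snrpn on chromosome 7, whose reads were not separated from it here.

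Thap12, a THAP-domain protein, combined a large gain with a high level. It was at 159 CPM in the unaltered line and 92.6, 93.0 and 107 CPM in the CT clones, and at 983, 1269.8 and 480 CPM in FAM3C KO clones 1 to 3 (log2 difference 2.93, SE 0.32, adjusted p = 0.00376, limma). Among the 8 called genes with the highest CPM in each direction, the other changes were smaller. Npm1, the nucleolar protein nucleophosmin, rose from 401 ± 24.0 (SD, n = 4) to 535 ± 34.9 CPM (SD, n = 3). Birc6, an inhibitor of apoptosis, Usp9x, a deubiquitinase, and the microtubule protein Map1b rose by 0.40, 0.28 and 0.36 on the log2 scale. Eno1, the glycolytic enolase, rose from 249 ± 38.4 to 480 ± 26.04 CPM, and its near-identical copy Eno1b by 0.91 on the log2 scale. Reads of these copies could have been split between them, and the values of Eno1b are uncertain.

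Among abundant genes called lower, Mki67, the proliferation marker, fell from 990 ± 67.3 CPM (SD, n = 4) to 783 ± 62.5 CPM (SD, n = 3). Cldn2, a pore-forming claudin, Ezr, which links actin to the membrane, and the calcium-binding S100a6 fell by 0.65, 0.43 and 0.31 on the log2 scale. The smallest p values belonged to large losses given above, such as Bcat1 and H1f10, and to genes with smaller differences but little spread between lines. Nav2 and Slco4a1 were of the latter kind. Nav2, a neuron navigator, was at 239, 246, 242 and 252 CPM in the 4 shPCBP1 lines, and at 97.4, 97.2 and 98.2 CPM in FAM3C KO clones 1 to 3 (log2 difference -1.33, SE 0.05, adjusted p = 1.46e-05, limma). Slco4a1, an organic anion transporter, was at 299 to 311 CPM in the shPCBP1 lines and at 156, 155 and 167 CPM in FAM3C KO. For both genes the 3 clones sat at nearly 1 level, well below every shPCBP1 line.

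Transcription factors of development were among the genes with large losses. Outside the Hox clusters, 13 of 102 tested were lower and 1 higher (13.7% called, against 8.29% of all genes), with a median log2 difference of -0.16. Foxf1, a forkhead factor of mesenchyme, was at 2.56 to 12.9 CPM in the shPCBP1 lines and at 0.133, 0.0400 and 0.154 CPM in FAM3C KO (log2 difference -4.84, adjusted p = 0.00404, limma). Ebf1, of the early B cell factor family, was at 1.93 to 13.3 CPM in shPCBP1, at 0.753 CPM in FAM3C KO clone 1 and at the lowest value in clones 2 and 3. The one gene of this list called higher was Sox4, a SOX factor, which rose by 0.28 on the log2 scale. That call was lost under all 3 rescalings (median-ratio, quantile and GC content).

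Among Hox cluster genes 4 of 21 were lower and none higher (19%), with a median of -0.37 and 17 of 21 negative. Hoxc6, Hoxc5 and Hoxc4, neighbours that set position along the body axis, fell (log2 differences -4.23, -3.05 and -2.84). Hoxc5 and Hoxc6 overlap on the genome. Hoxb13, from the end of another cluster, was at 10.1 to 13.7 CPM in the shPCBP1 lines and at 5.004, 4.12 and 4.61 CPM in FAM3C KO (log2 difference -1.38, SE 0.14). A list of transcription factors that the study drew from these same samples, and that is no independent evidence of direction, had 6 of 11 tested members lower, among them Ebf3 (log2 difference -4.25), Zfp503 (-4.08) and Pou4f1 (-3.38).

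Proliferation genes changed by smaller amounts. Of 63 genes of the cell cycle and DNA replication, 14 were lower and 1 higher (23.8%), with 57 of 63 negative and a median log2 difference of -0.16. Mcm5, a subunit of the replicative helicase, was at 158 CPM or more in shPCBP1 and 105, 83.5 and 98.4 CPM in FAM3C KO, and lies in a stretch of chromosome 8 described below. The kinase inhibitors Cdkn2c and Cdkn2d, which hold back cell cycle entry, fell as well (log2 differences -0.70 and -0.57), as did E2f2, an S-phase transcription factor (-0.89). Ccnd2, a G1 cyclin, went the other way, from 182 to 261 CPM in shPCBP1 to 373, 377 and 398 CPM in FAM3C KO (log2 difference 0.87, SE 0.12).

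Histone genes had 10 of 74 lower and none higher (13.5%), with 66 of 74 negative and a median of -0.24. Apart from H1f10, the fallen members were replication-dependent histones with small differences, such as H3c14 (-0.44), H3c13 (-0.40) and H3c15 (-0.37). Their copies are near-identical, so reads could have been split between them and the value of each single copy is uncertain. The medians of the histone, cell cycle and Hox lists stayed negative under all 3 rescalings. Cytosolic ribosomal protein genes had 5 of 79 lower and 2 higher (8.86%), near the share of all genes.

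Growth and guidance pathways changed by single members. Wnt ligands, receptors and antagonists had 5 of 35 lower and none higher (14.3%), with a median near 0. Rnf43, a ubiquitin ligase that clears Frizzled receptors, was at 59.3 to 94.4 CPM in shPCBP1 and 41.1, 19.5 and 30.2 CPM in FAM3C KO. Axin2, a feedback inhibitor of Wnt signaling, and the R-spondin receptor Lgr4 fell by 0.96 and 0.81, and Tcf7l1, a repressor at Wnt targets, by 1.51 on the log2 scale. Gli3, the repressor-forming effector of Hedgehog signaling, was at 15.1, 46.9, 21.9 and 34.7 CPM in the 4 shPCBP1 lines, the unaltered line first, and at 3.45, 1.60 and 1.61 CPM in FAM3C KO (log2 difference -3.64, SE 0.41).

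Axon guidance genes had 7 of 44 lower and 2 higher (20.5%). The semaphorins Sema6a and Sema4f fell (log2 differences -4.54 and -1.26), and the navigator Nav3, at 0.873 to 5.33 CPM in the shPCBP1 lines, was at the lowest value in all 3 clones, whereas Sema6b and the plexin receptor Plxna3 rose by 1.19 and 0.50 on the log2 scale. In the Notch pathway 3 of 20 were higher and 2 lower (25%). The higher members were the ligands Jag1 and Jag2 and the receptor Notch4. Jag1 was at 96.1 CPM in the unaltered line, 61.7 to 66.4 CPM in the CT clones and 127, 123.3 and 116 CPM in FAM3C KO. The lower members were Hes1, a target of the pathway (log2 difference -0.29), and Rfng, a fringe glycosyltransferase that modifies the receptors (-0.36), and 1 of these calls was lost under each of the 3 rescalings. MAPK feedback and immediate early genes had 5 of 39 lower and 2 higher (17.9%). The lower ones included Arc, an early gene best known from neurons (log2 difference -3.77), the MAP kinase phosphatase Dusp1 (-0.55) and the antiproliferative Btg2 (-0.57). The higher ones were the pathway inhibitor Spred1 (0.27) and the ETS factor Etv5 (0.53). Of 30 YAP and TEAD response genes 4 were higher and none lower (13.3%), among them the ectonucleotidase Nt5e (log2 difference 1.69) and Tead4 itself (0.28). TGF-beta and BMP pathway genes had 4 of 48 higher and none lower (8.33%), the share of all genes.

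Matrix and adhesion genes went in both directions. Laminins, nidogens and integrins had 4 of 30 higher and 3 lower (23.3%). Lamb1, a laminin beta chain of basement membranes, was at 11.1 to 12.8 CPM in the shPCBP1 lines and at 2.26, 5.52 and 1.54 CPM in FAM3C KO, and Lamb2 fell by 0.53 on the log2 scale. The integrin subunits Itga2 and Itga6, which bind collagen and laminin, rose by 0.93 and 0.53, while Itgb3 of the vitronectin receptor fell by 0.65. Proteoglycan and glycosaminoglycan genes had 5 of 60 lower and 2 higher (11.7%). Besides Chst11 the lower ones included the keratan sulfotransferase Chst1 (log2 difference -3.08), the heparan sulfotransferase Hs3st5 (-1.19) and the glypican Gpc4, which was at 0.162 to 2.09 CPM in the shPCBP1 lines and at the lowest value in all 3 clones. The higher ones were B3galt6 (0.81) and Csgalnact1 (0.84), enzymes that build the linker and the chondroitin chain. B3galt6 lies in a stretch of chromosome 4 described below. The list of immunoglobulin superfamily and leucine-rich repeat genes had 7 of 77 higher and 2 lower (11.7%). It was built from gene names, and besides the adhesion molecule Mcam (log2 difference 1.045) it took in Lrrc47 (0.80) and Lrrc41 (-0.27), which are not known for adhesion. Collagens and their modifying enzymes had 2 of 38 higher and 3 lower (13.2%).

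Thbs1, the matricellular protein thrombospondin 1, was at 195 CPM in the unaltered line and 112, 64.9 and 187 CPM in the CT clones, and at 371, 332 and 375 CPM in FAM3C KO. Ltbp4, which tethers latent TGF-beta to the matrix, rose by 1.03 on the log2 scale. Both were among 2 higher and 1 lower of 28 other matrix glycoproteins (10.7%), the lower one being the tenascin Tnxb (log2 difference -0.996).

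Receptors and carriers of the LIF pathway changed little apart from Lifr. Lifr (chromosome 15 of GRCm38 from 7090614 to 7197489) was at 28.4 CPM in the unaltered line and 25.8, 34.8 and 40.2 CPM in the CT clones, against 13.5, 10.5 and 19.2 CPM in FAM3C KO clones 1 to 3. The level was 44.6% of the shPCBP1 mean (log2 difference -1.18, SE 0.22, adjusted p = 0.0203, limma), and the call was lost without FAM3C KO clone 1 (adjusted p = 0.0738, limma). Lifr was the only one called of 8 tested receptors and ligands of the family. Il6st averaged 118 ± 4.38 CPM over the shPCBP1 lines (SD, n = 4) and 129 ± 2.88 CPM over the clones (SD, n = 3), and did not pass (adjusted p = 0.195, limma).

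JAK-STAT carriers and inhibitors had 2 of 26 higher and none lower (7.69%). Ptpn6, the phosphatase SHP-1 that dampens cytokine receptors, was at 1.26 to 2.10 CPM in shPCBP1 and 3.55, 5.32 and 4.43 CPM in FAM3C KO. Socs5, a suppressor of cytokine signaling, rose by 0.47 on the log2 scale and lies in a stretch of chromosome 17 described below. Stat3 itself was at 62.6 to 68.5 CPM and 55.9 to 63.1 CPM (adjusted p = 0.339, limma). Of 34 STAT3 response genes 3 were lower and none higher (8.82%): Mmp2, a gelatinase (log2 difference -4.13), Zfp36, which destabilizes mRNA (-0.51), and Klf5, an epithelial Krueppel-like factor (-0.29). Under the 3 rescalings 2 or 3 genes of this list were also called higher.

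EMT transcription factors had 1 of 15 called, Zeb2, which rose by 0.49 on the log2 scale. Twist2 (log2 difference -1.05) and Twist1, at 0.0808 to 3.62 CPM in the shPCBP1 lines and at the lowest value in all 3 clones, did not pass (adjusted p = 0.132 and 0.206, limma). Mesenchymal markers had 3 of 18 lower and none higher (16.7%): Mmp2, the membrane-bound Mmp14 (log2 difference -0.39) and Itgb3. The list as a whole did not fall, with 9 of 18 negative and a median of -0.05. Its members summed to 3450 to 3900 CPM in shPCBP1 and 3840 to 4110 CPM in FAM3C KO. Epithelial markers had 2 of 26 lower (7.69%), the mucin Muc1 (-0.85) and the grainyhead factor Grhl1 (-0.83). Basal and myoepithelial markers had 3 of 13 higher and none lower (23.1%): Jag1, Itga6 and the myosin kinase Mylk (log2 difference 0.86). Vim, the mesenchymal intermediate filament, was at 1295 to 1443 CPM in shPCBP1 and 1304 to 1433 CPM in FAM3C KO and, like Cdh1 and Krt8, was picked after its values were seen.

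The list counts moved with single lines. The number of histone genes called, 10 in all, was 2 without FAM3C KO clone 3, 3 without clone 1 or clone 2, 4 without CT clone 2 and 6 without CT clone 1 or the unaltered line. Of 15 cell cycle genes, 4 were called without FAM3C KO clone 1, 5 without clone 3, 9 without clone 2, 6 without CT clone 2 and 7 without CT clone 1. The developmental factors ranged from 6 to 14 calls, the axon guidance list from 4 to 10 and the Hox list from 3 to 4. No STAT3 response gene and no mesenchymal marker was called without FAM3C KO clone 3, and no basal marker without FAM3C KO clone 1. The YAP and TEAD list had no call without CT clone 1, CT clone 2, FAM3C KO clone 1 or FAM3C KO clone 3. The Notch, laminin and proteoglycan lists each dropped to 2 calls, the MAPK and ATF4 lists to 1 without FAM3C KO clone 3, and the neural and glial markers to 0 or 1 in every such fit.

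**Figure D3:**
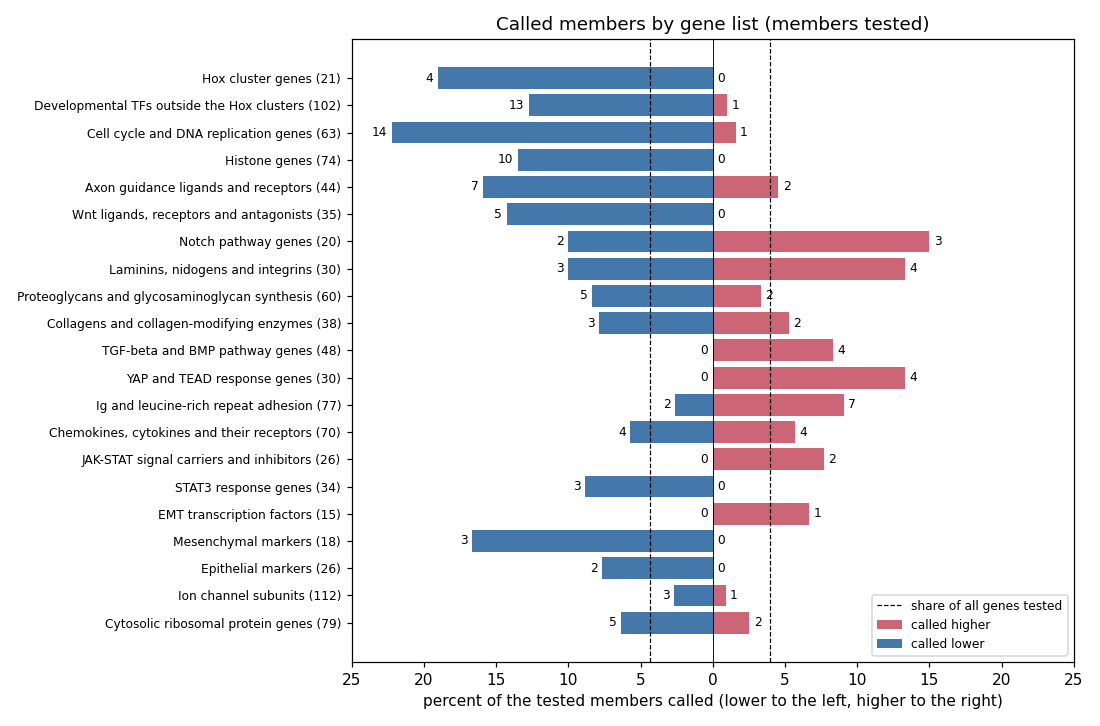
Percent of the tested members of 21 gene lists called lower (blue, left) or higher (red, right) in FAM3C KO, with the number called at the end of each bar and the number tested in parentheses; dashed lines mark the share of all genes tested (4.35% lower, 3.94% higher). Among the lists drawn, the cell cycle and Hox lists reach furthest to the left and the Notch list furthest to the right.

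Cytokines and metabolism gave further gains. The chemokines Ccl9, Ccl20 and Ccl2, which draw in myeloid and lymphoid cells, rose by 2.16, 1.60 and 0.83 on the log2 scale. Ccl2 was at 118 to 178 CPM in the shPCBP1 lines and at 248, 246 and 270 CPM in FAM3C KO. The alarmin Il33 fell, from 41.3 to 53.1 CPM in shPCBP1 to 23.8, 20.5 and 25.9 CPM in FAM3C KO. In all, 4 of 70 chemokine, cytokine and receptor genes were higher and 4 lower (11.4%). Genes of the ATF4 and amino acid response had 4 of 38 higher and 1 lower (13.2%), with a median of 0.19. Cth, the transsulfuration enzyme that makes cysteine, was at 7.06 to 10.3 CPM in shPCBP1 and 27.6, 20.04 and 26.6 CPM in FAM3C KO (log2 difference 1.48, SE 0.15). Ogdhl, a relative of the 2-oxoglutarate dehydrogenase subunit, rose by 2.02 on the log2 scale.

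Calls in several families were near or below the 8.29% of all genes. Ion channel subunits had 1 of 112 higher and 3 lower (3.57%), solute carriers 11 of 222 higher and 8 lower (8.56%), and interferon and antigen presentation genes 2 of 63 higher and 3 lower (7.94%). Among the last, the class I genes H2-D1 and H2-K1 fell by 1.43 and 0.55 on the log2 scale. These are members of a family of similar genes, and their reads could have been split between copies. The small MAGE family, in contrast, had 2 of 7 higher and 2 lower (57.1%): Mageb2 and Mageb3 rose by 1.61 and 1.14, Magee1 fell by 0.95, and Maged2 was lost as given above. Without FAM3C KO clone 3, 2 MAGE genes were called. Mageb3 overlaps Ctdspl2 on chromosome 2, and reads shared between them were not separated here.

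The 3 clones were not equally alike. FAM3C KO clones 1 and 3 differed by at least 2-fold in 150 genes, the fewest of all 21 pairs of lines, while clone 2 differed from clone 1 in 454 and from clone 3 in 436. Pairs of shPCBP1 lines differed in 231 to 349 genes. Pairs across the groups differed in 322 to 847 genes. The unaltered line was 322 and 325 genes from FAM3C KO clones 1 and 3, within the range between shPCBP1 lines, whereas each CT clone was at least 501 genes from any FAM3C KO clone. These counts cover genes with at least 1 CPM and carry counting error that differs with the depth of the library.

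**Figure D4:**
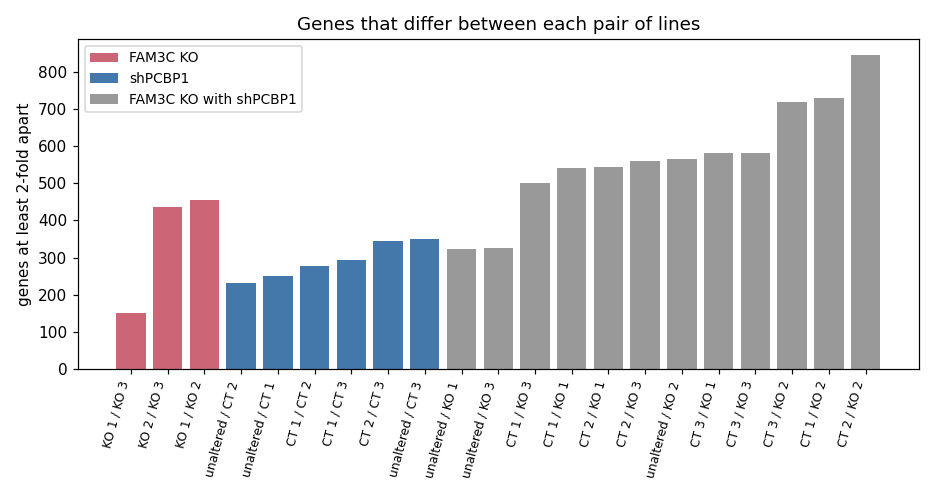
Number of genes at least 2-fold apart for each of the 21 pairs of lines, within FAM3C KO (red), within shPCBP1 (blue) and across (gray); KO and CT are FAM3C KO and shPCBP1 CT clones. Clones 1 and 3 form the closest pair (150 genes), and CT clone 2 with FAM3C KO clone 2 the farthest (847).

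Called genes were nevertheless alike in size across the clones, as the test requires. Of 1048 called genes, 497 of the 498 higher and 548 of the 550 lower did not overlap between clones and lines. Over all genes tested 22.7% did not overlap. The spread between the highest and the lowest clone had a median of 0.20 on the log2 scale for genes called higher and 0.21 for those called lower. It stayed within 0.2 for 247 and 264 genes, and went past 1 for 16 and 62. Clone 2 stood farthest from shPCBP1 for 281 of the genes called lower, against 109 for clone 1 and 160 for clone 3.

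Each clone also had changes of its own, at least 4-fold from all 6 other lines. There were 7 such genes in FAM3C KO clone 1, 38 in clone 2 and 12 in clone 3, against 15, 8 and 20 in CT clones 1 to 3 and 1 in the unaltered line. Most were losses: 6, 27 and 12 in FAM3C KO clones 1 to 3. Apob, which forms lipoprotein particles, was at 11.6 CPM in clone 1 but 1579 and 199 CPM in clones 2 and 3 and 596 to 1167 CPM in shPCBP1. Lrrk2, a large kinase of vesicle traffic, was at 0.480 CPM in clone 2, with 24.5 and 24.3 CPM in clones 1 and 3 and 29.3 to 36.6 CPM in shPCBP1. In clone 3, Myo5b, a motor of recycling endosomes, was at the lowest value, with 8.06 and 9.64 CPM in clones 1 and 2 and 4.43 to 24.6 CPM in shPCBP1. Apob, Lrrk2 and Myo5b were not called. Of all genes particular to FAM3C KO clones 1, 2 and 3, the numbers called were 1, 4 and 0.

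The called genes were not spread evenly over the chromosomes. On chromosome 8, 116 of 670 tested genes (17.3%) were lower, on chromosome 17, 86 of 633 (13.6%) were higher, and on chromosome 4, 80 of 789 (10.1%) were higher, against 4.35% lower and 3.94% higher over all genes. They lay mainly in 3 stretches, chosen after the values were seen. Chromosome 4 beyond 150 Mb had 59 of 76 genes higher and none lower, with a median log2 difference of 0.84 and of 0.86, 0.87 and 0.84 in FAM3C KO clones 1 to 3. Chromosome 8 from 75 to 105 Mb had 103 of 161 lower and none higher (median -0.53), and chromosome 17 beyond 55 Mb 79 of 153 higher and none lower (median 0.41). The unaltered line deviated from the other 3 shPCBP1 lines by 0.36 on chromosome 4 and -0.28 on chromosome 8, in the direction of the clones. On chromosome 17 the shPCBP1 lines were divided. CT clone 3 (0.162) and the unaltered line (0.101) deviated in the direction of the clones, and CT clones 1 and 2 (-0.129 and -0.136) against it.

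Outside these stretches 807 calls remained among 12254 genes (6.59%), 360 higher and 447 lower. Eno1, Plekhg5, Rpl22, Mcm5, B3galt6, Lrrc47, Birc6 and Socs5 lie inside them, as do Irx3 and Mmp2. Only 13 of the 241 calls inside reached a 2-fold difference. The cell cycle list kept 13 lower genes outside, the histone list 10, the Hox list 4 and the other developmental factors 11.

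**Figure D5:**
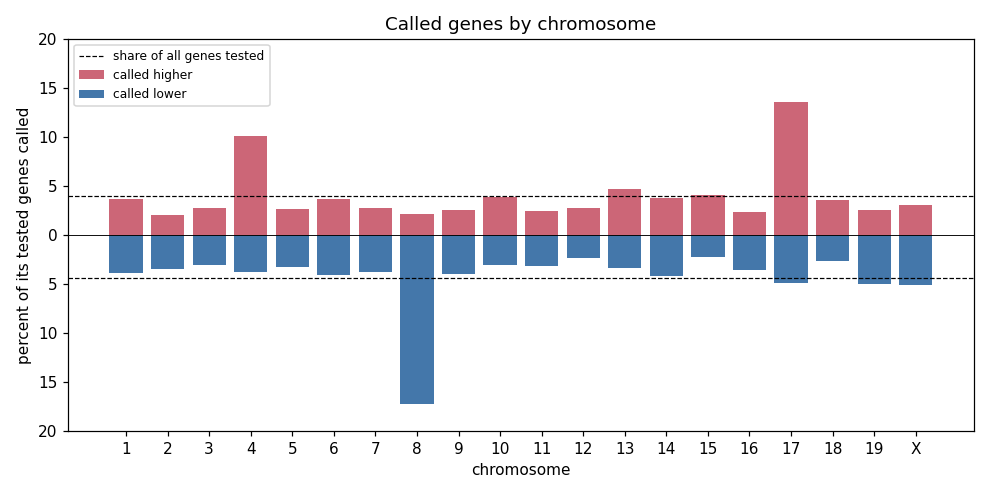
Percent of the tested genes of each chromosome called higher (red, up) or lower (blue, down), with dashed lines at the share of all genes tested. Chromosomes 4 and 17 stand out upward (10.1% and 13.6%) and chromosome 8 downward (17.3%).

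Values in the other knockout lines are given beside those of FAM3C KO for single genes, which were picked without a fixed rule. These lines share the 4 shPCBP1 lines as reference and were not tested against them here. Bcat1 was at 43.5 and 42.6 CPM in the first 2 LIFR KO clones, at 0.0858 CPM in LIFR KO clone 3 and at 0.0937 CPM in the FAM3C/LIFR double KO. Tusc1 was at 6.06 and 4.20 CPM in the first 2 LIFR KO clones and at the lowest value in LIFR KO clone 3 and the double KO. Nav2 was at 237, 158 and 53.1 CPM in the 3 LIFR KO clones and at 51.9 CPM in the double KO. LIFR KO clone 3 and the double KO had under 0.1 CPM of Bcat1 and Tusc1, and their Nav2 levels were below those of all 3 FAM3C KO clones. LIFR KO clone 1 had Bcat1 and Tusc1 within the range of the shPCBP1 lines and Nav2 just below it. The correlation of GC content with the deviation was 0.067, -0.756 and -0.743 in LIFR KO clones 1 to 3. In the double KO it was -0.7, and the part of GC content in these levels was not tested.

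The called genes were then looked up in the second dataset, 2 NMuMG samples and 2 shPCBP1 samples that share no library with the first. Among the 11058 genes tested in both, 16.1% were higher and 14.3% lower in shPCBP1 (adjusted p under 0.07 and at least 1.5-fold). Of 462 genes called higher in FAM3C KO, 18.4% were higher in shPCBP1 and 26% lower. Of 497 called lower, 24.9% were higher in shPCBP1 and 15.9% lower. Among genes called by at least 2-fold the shares were alike in both directions: 36.4% higher and 36.4% lower for the 66 called higher, and 41.6% and 40.4% for the 89 called lower. From the other side, 6.98% of the 1776 genes raised in shPCBP1 were called lower in FAM3C KO and 4.79% higher. Nav2 was at 2.89 and 2.66 CPM in NMuMG and 31.2 and 31.1 CPM in shPCBP1, and Chst11 at most at 0.0190 CPM in NMuMG and at 28.2 and 28.1 CPM in shPCBP1. Slco4a1 moved the same way in both comparisons, from 302 and 300 CPM in NMuMG to 57.6 and 58.2 CPM in shPCBP1 of the second dataset. Levels in shPCBP1 were not alike in the 2 datasets. In the first, its shPCBP1 lines had Slco4a1 at 299 to 311 CPM and Nav2 at 239 to 252 CPM.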

How the data were processed

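RNA was sequenced from 1 sample per line after ribosomal RNA depletion with a directional kit, in paired reads of 150 bp per the labels. Per the submitters' processing notes and the methods, the authors used Partek Flow with Bowtie2 and the GRCm38 (mm10) build, and deposited CPM values per gene, in which the lowest value of a library stands in for no reads. The strand setting of the counting is not given in the sources used here. The second deposited table also holds the authors' fold ratio of group means, which was not used. Because the values are CPM and whole reads could not be recovered from them, no count model was run.

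Of 13893 genes, the 12644 that averaged 0.5 CPM or more over the 7 libraries were tested on log2(CPM + 0.1) with limma 3.58.1 (R 4.3.3, mean-variance trend) on FAM3C KO and shPCBP1 alone, with a Benjamini-Hochberg adjusted p under 0.07, the threshold of the study. An exact two-sided permutation over the 35 splits cannot give less than 0.0286. The fit was tested on simulated data. Coordinates were looked up by gene ID in GENCODE M21 (GRCm38) and promoters in RefSeq. Genes were named by rank of size, level and p, by list and by clone; genes outside this rule are marked. Members and lists were chosen with earlier results of these data known. Alternatives covered normalization, pseudocount, filter, spread model, samples, threshold, block, GC content and each line left out.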

Additional observations from a re-analysis of the deposited data

Results flagged for a closer look

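In 27 of the 259 named genes, 1 of the 4 shPCBP1 lines stood apart from the other 3 by Dixon's test of the gap over the range. About 1 in 20 groups would be flagged if the values were normal and the groups independent. The named genes were chosen by their values in these same lines, so that rate is no baseline for this count. The share over all genes tested is not given here. The unaltered line stood apart in 16 of them. It was high in Abcc2 (7.42 CPM, others 0.981 to 1.82), Cfap77 (0.998 CPM, others 0.121 to 0.192), Colgalt1 (128 CPM, others 113 to 113), Gm38393 (4.26 CPM, others 0.0344 to 0.121), Jag1 (96.1 CPM, others 61.7 to 66.4), Mcam (5.43 CPM, others 2.95 to 3.07), Pdcd1lg2 (1.75 CPM, others 0.0213 to 0.0404), Samd5 (4.18 CPM, others 0.235 to 0.721), Shc2 (3.99 CPM, others 0.825 to 0.981), Slc27a6 (2.93 CPM, others 0.0213 to 0.242), Tspan6 (3.24 CPM, others 0.0344 to 0.064), Wdfy4 (6.36 CPM, others 0.849 to 1.36) and Zbtb48 (10.5 CPM, others 6.23 to 6.91). It was low in Anxa8 (61.2 CPM, others 77.7 to 80.7), Cnot1 (306 CPM, others 377 to 392) and Il5ra (14.7 CPM, others 23.7 to 25.5).

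CT clone 1 was high in Cldn2 (616 CPM, others 447 to 459), Fat4 (13 CPM, others 1.34 to 2.07), Hoxc4 (5.01 CPM, others 0.97 to 1.61) and Pard3b (16.4 CPM, others 5 to 6.43), and low in Cdc42ep3 (5.09 CPM, others 6.05 to 6.24) and Dusp1 (111 CPM, others 151 to 154). CT clone 2 was high in Ndufb11 (42.2 CPM, others 38.5 to 39), and low in Slc17a6 (0.929 CPM, others 1.75 to 1.83) and Spred1 (71.9 CPM, others 76.8 to 77.2). CT clone 3 was high in Ndufv2 (50.3 CPM, others 43.3 to 43.9) and Tssc4 (48.7 CPM, others 42.7 to 43.6). The cause was not tested for any of these genes.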

How the results depend on the processing

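Under the 3 rescalings, a pseudocount of 1 CPM, either other filter, robust moderation and an adjusted p under 0.05, the total stayed within 1.5 times of 1048 and Fam3c and Lifr stayed called. Requiring a fold change of 1.5 left 485 genes, 233 higher and 252 lower. With the LIFR KO clones in the fit 39 were called, 11 higher and 28 lower, and neither Fam3c (log2 difference -0.6629, adjusted p = 0.229, limma) nor Lifr (-1.1803, adjusted p = 0.173, limma) passed. Without the mean-variance trend 360 genes were called lower, and Fam3c did not pass (-0.6629, adjusted p = 0.0809, limma). Leaving out 1 line in turn gave 397 to 946 calls, 166 to 465 higher and 228 to 481 lower, with Fam3c at -0.8354 to -0.4876 and Lifr at -1.4073 to -0.9773; the total was 515 without CT clone 1, 499 without CT clone 2, 397 without FAM3C KO clone 1 and 414 without FAM3C KO clone 3. Lines left out shrink the group, and the causes of the other changes were not tested. In the second dataset, 9123 of 11384 genes tested passed the adjusted p for shPCBP1 against NMuMG, and 3543 with a fold of at least 1.5. These p-values measure only the spread between the replicates of each group. Outside the 3 chromosome stretches, an alternative chosen after seeing the data, 807 calls remained.

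With the clone number as a replicate block, 404 genes were called, 207 higher and 197 lower, of which 365 were among the 1048. Fam3c did not pass (-0.6648, adjusted p = 0.0973, limma). The unaltered line was alone in its block and so added nothing to the group difference. Without that line and without a block, 946 genes were called. The deviations of same-numbered clones correlated at -0.027, -0.186 and -0.05, and those of clones with different numbers at -0.121 to 0.148. The labels give same-numbered clones only the number in common. Correlations of deviations within 3 clones cannot decide whether they share more. Of 239 named called genes, 112 stayed called under the block, 24 with the LIFR KO clones in the fit and 159 without the trend, and none changed direction. Among named genes not called, the log2 difference changed sign for Pcbp1 with the GC content correction (0.011), Cnksr2 without FAM3C KO clone 3 (-2.4315 to 0.5006 over the lines left out), Col12a1 (-2.7596 to 0.3144) and Xlr3a (-0.9566 to 1.6412) without clone 1, and Trpc5os without clone 2 (-0.2367 to 2.3294).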
